A study of Mus musculus with 10 samples.

Results

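The 9 genes described here, H2-Aa, H2-Ab1, H2-Eb1, H2-DMa, H2-DMb1, Cd74, Ciita, Cd86 and Itgax, belong to the presentation of antigen on major histocompatibility complex (MHC) class II molecules or mark the cells that carry it out. They were taken by name from the 38922 genes of each liver table, after the Ensembl identifiers of the tables had been given symbols, and all 9 passed the filter on low counts that left 13719 genes for testing. RNA was sequenced from the livers of 10 wild-type male C57BL/6N mice, 6 weeks of age. 5 mice received an intraperitoneal injection of an antibody that activates CD95 (CD95-Ab), the death receptor also called FAS, at 0.5 µg per g of body weight, and 5 received the same volume of saline. All livers were taken 6 h after the injection. The CD95-Ab group is a model of acute liver failure by hepatocyte apoptosis, and the RNA came from all cells of the liver tissue together.

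MHC class II molecules are pairs of an alpha and a beta chain that display peptides from engulfed proteins to CD4+ T cells. H2-Aa and H2-Ab1 encode the alpha and beta chains of the mouse A molecule, and H2-Eb1 encodes the beta chain of the E molecule. Cd74 encodes the invariant chain, which escorts new class II molecules to the endosome, and H2-DMa and H2-DMb1 encode the DM molecule, which helps to exchange the remnant of that chain for peptide. Ciita encodes the coactivator that class II transcription depends on. Cd86 encodes a costimulatory ligand for CD28 on T cells, and Itgax encodes CD11c, an integrin subunit used as a marker of dendritic cells and also found on other myeloid cells. In the liver, class II genes are known from dendritic cells, Kupffer cells, sinusoidal endothelial cells and B cells.

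5 of the 9 genes lie close together in the MHC on chromosome 17 (GRCm38), where H2-DMa spans 34119541 to 34139101, H2-DMb1 spans 34153072 to 34160230, H2-Ab1 spans 34257689 to 34269419, H2-Aa spans 34282744 to 34287823 and H2-Eb1 spans 34305867 to 34316674. H2-Aa is on the minus strand and the other four are on the plus strand. The rest are on other chromosomes, with Ciita at 10480059 to 10528418 and Cd86 at 36603869 to 36666081 on chromosome 16 and Itgax at 128129547 to 128150657 on chromosome 7.

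Class II promoters are known for a shared module just before the start of transcription. It holds an X box, bound by the RFX complex, and a Y box, bound by NF-Y, at a fixed distance from each other, and CIITA docks on the proteins bound there. A spaced pair of GNAAC, taken from the X box, followed after 20 to 35 bases by ATTGG, the core of the Y box, was searched on both strands of the RefSeq promoter windows of GRCm38.p6, each with 250 bases before and 50 bases after a start. The letters of the pair do not overlap each other. The pair was present in 878 of 32851 windows (2.67%), and ATTGG alone on either strand in 12289 (37.4%). 5 of the 9 genes matched a window, and 3 of these 5 held the pair, all on the strand of the gene. The 250 bases before their starts are shown because the module is the element these genes are known to share. GNAAC and ATTGG of the pair are in capitals, and the windows are chr17:34287824-34288073 for H2-Aa (minus strand), chr17:34305617-34305866 for H2-Eb1 (plus strand) and chr17:34152941-34153190 for H2-DMb1 (plus strand).
H2-Aa: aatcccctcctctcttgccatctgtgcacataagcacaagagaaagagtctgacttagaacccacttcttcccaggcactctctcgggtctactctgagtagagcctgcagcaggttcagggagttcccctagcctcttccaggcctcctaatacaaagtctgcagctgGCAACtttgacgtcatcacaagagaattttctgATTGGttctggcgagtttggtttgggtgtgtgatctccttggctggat
H2-Eb1: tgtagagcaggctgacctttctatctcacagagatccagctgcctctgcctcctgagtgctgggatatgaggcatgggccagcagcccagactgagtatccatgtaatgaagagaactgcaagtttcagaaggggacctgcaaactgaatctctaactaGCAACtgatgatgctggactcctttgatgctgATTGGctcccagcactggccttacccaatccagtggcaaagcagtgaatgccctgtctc
H2-DMb1: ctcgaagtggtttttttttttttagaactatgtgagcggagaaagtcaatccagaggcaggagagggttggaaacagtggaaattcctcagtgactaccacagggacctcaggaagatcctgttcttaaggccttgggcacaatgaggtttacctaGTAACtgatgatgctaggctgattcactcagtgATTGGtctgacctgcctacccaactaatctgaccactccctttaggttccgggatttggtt
ATTGG began 48 bases before the start in H2-Aa, 59 in H2-Eb1 and 61 in H2-DMb1, and the gap within the pair was 28, 27 and 28 bases. Neither of the 2 windows of H2-DMa nor the window of Itgax held the pair. H2-Ab1, Cd74, Ciita and Cd86 were not matched to a window.

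4 further class II genes were searched in the same way for comparison. The pair was found in H2-Oa (gap of 28 bases), H2-Ob (25 bases) and H2-Eb2 (27 bases), and not in H2-DMb2. From GNAAC to ATTGG these read as follows.
H2-Oa: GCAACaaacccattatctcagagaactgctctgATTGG
H2-Ob: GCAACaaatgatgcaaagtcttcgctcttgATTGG
H2-Eb2: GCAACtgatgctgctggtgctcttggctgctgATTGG
A match to these letters is a description of the window and was not tested for binding.

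The livers held between 25965699 and 62097636 counts. Groups were set apart along the first principal component (67.7% of the variance). On the second (9.8%), saline replicate 5 and CD95-Ab replicate 4 lay farthest from the other mice of their groups. Levels are given as CPM, counts per 1000000 after scaling with TMM factors, as mean ± SD of 5 mice. A gene is called higher or lower where the false discovery rate (FDR, Benjamini-Hochberg over all 13719 genes) of edgeR's quasi-likelihood test was 0.05 or less. In RNA of whole liver, more cells of a type and more RNA per cell cannot be told apart.

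6 of the 9 genes were higher after CD95-Ab and none was lower, where 25.4% of all tested genes were higher and 22.0% were lower, 47.3% in either direction. H2-Aa, H2-Ab1, H2-Eb1, Cd74, Cd86 and Itgax were called, and H2-DMa, H2-DMb1 and Ciita were not. The median log2 fold change of the 9 genes was 1.05, beside 0.01 over all tested genes. The genes fell into different sizes of change, with about 2-fold for the chains and Cd74 and 8.45-fold and 13.1-fold for Cd86 and Itgax. All 5 CD95-Ab livers were above all 5 saline livers for Cd74, Cd86 and Itgax, as they were for 18.6% of tested genes.

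**Figure D1:**
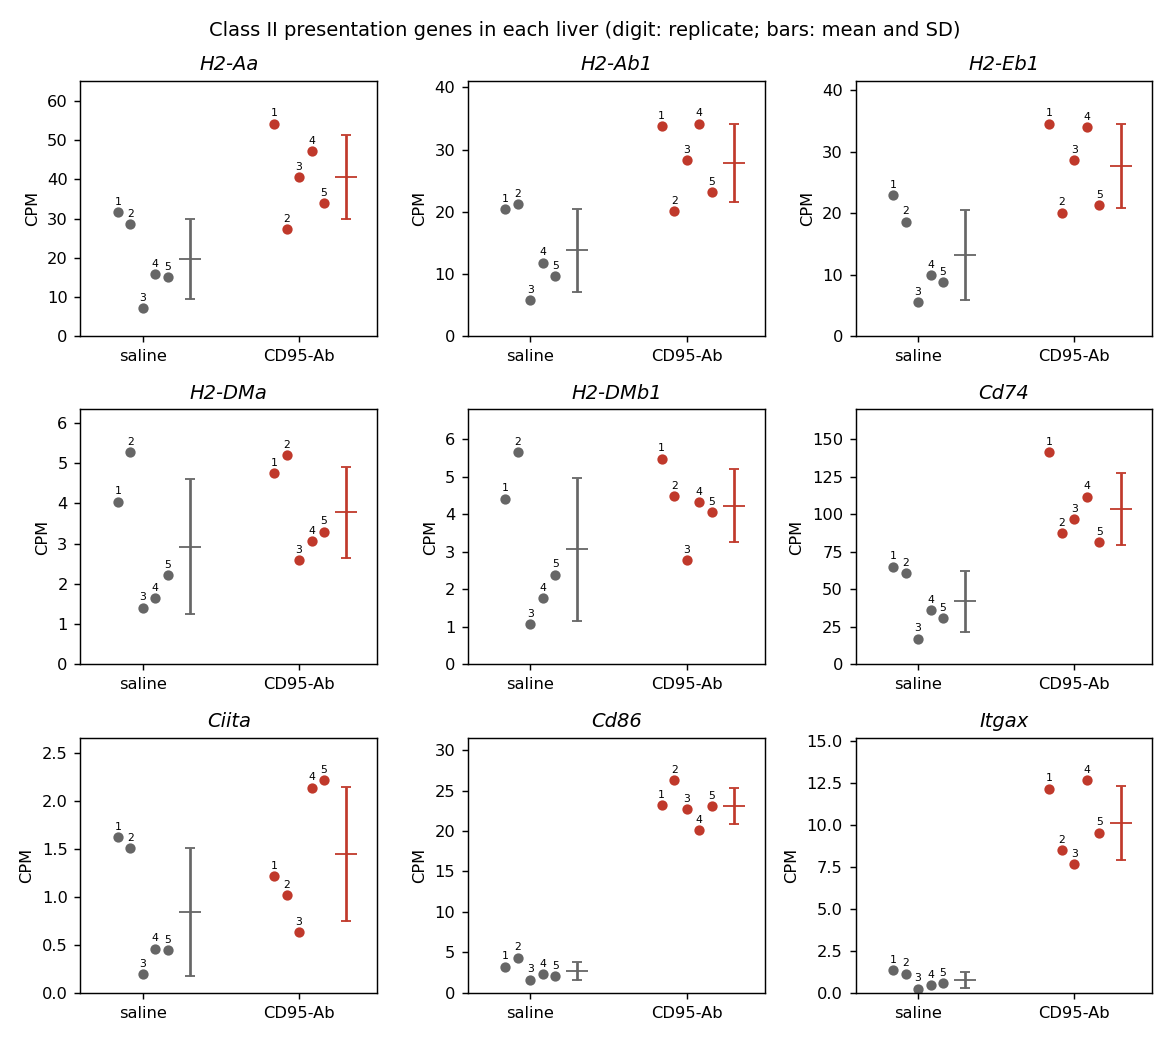
CPM (counts per 1000000, linear axes from 0) of the 9 genes in each saline liver (grey) and CD95-Ab liver (red), with the replicate number above each point and the mean ± SD beside it. The groups do not overlap for Cd74, Cd86 and Itgax, and saline replicate 3 is the lowest saline liver in all 9 panels.

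H2-Aa measured 31.7, 28.6, 7.18, 15.7 and 15.1 CPM in saline replicates 1 to 5, and 54.3, 27.2, 40.6, 47.2 and 33.9 CPM in CD95-Ab replicates 1 to 5. The level was highest in saline replicates 1 and 2 among the controls, and CD95-Ab replicate 2 lay within the saline range while the other 4 lay above it. The mean was 19.7 ± 10.2 CPM after saline and 40.6 ± 10.6 CPM after CD95-Ab, and the log2 fold change was 1.05 (SE 0.34, FDR = 0.0252 by edgeR's quasi-likelihood test).

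The beta chain gene H2-Ab1 varied over the mice in a similar way, with 20.4, 21.2, 5.83, 11.8 and 9.60 CPM after saline and 33.8, 20.1, 28.3, 34.2 and 23.1 CPM after CD95-Ab. Here too CD95-Ab replicate 2 lay within the saline range. H2-Ab1 rose from 13.8 ± 6.76 to 27.9 ± 6.29 CPM (log2 fold change 1.02, SE 0.31, edgeR FDR = 0.0188).

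H2-Eb1 had 23.0, 18.6, 5.52, 9.97 and 8.83 CPM in the saline livers and 34.6, 20.1, 28.6, 34.1 and 21.3 CPM in the CD95-Ab livers. CD95-Ab replicates 2 and 5 were below saline replicate 1, and the other 4 saline livers were below all CD95-Ab livers. The mean rose from 13.2 ± 7.30 to 27.7 ± 6.85 CPM (log2 fold change 1.07, SE 0.34, edgeR FDR = 0.0219). The partner chain of the E molecule is known to be missing from C57BL/6 mice, and its gene, annotated as the pseudogene H2-Ea-ps, had 0 counts in all 10 livers. A count of 0 allows up to 3 counts, or 0.0483 to 0.116 CPM depending on the depth of the liver, a limit that covers counting error only. H2-Ea-ps was chosen after its values were seen.

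These chain genes rested on the processing more than the rest of the set did. None of the 3 was called with library totals in place of TMM factors, where the FDR was 0.0632 for H2-Aa, 0.0547 for H2-Ab1 and 0.0589 for H2-Eb1. Nor was any called without saline replicate 5 and CD95-Ab replicate 4 together, with FDR of 0.0952, 0.0829 and 0.0928. H2-Aa was also lost without saline replicate 4 (FDR = 0.0648), saline replicate 5 (FDR = 0.0581) or CD95-Ab replicate 1 (FDR = 0.0593), and H2-Eb1 without saline replicate 4 (FDR = 0.0581) or saline replicate 5 (FDR = 0.0526). Their log2 fold changes stayed positive throughout, between 0.82 and 1.36 over all the alternatives.

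Cd74 was the gene of the set with the highest level per length, as shown further on. It measured 65.1, 61.0, 17.2, 36.3 and 30.6 CPM in saline replicates 1 to 5 and 141.3, 87.3, 96.5, 111.7 and 81.3 CPM in CD95-Ab replicates 1 to 5. The lowest CD95-Ab liver was above the highest saline liver. The mean rose from 42.0 ± 20.5 to 103.6 ± 24.0 CPM, a 2.47-fold difference (log2 fold change 1.30, SE 0.32, edgeR FDR = 0.0054). Cd74 was called in 21 of 21 alternative analyses.

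For the DM genes the groups overlapped widely. H2-DMa had 4.05, 5.28, 1.41, 1.65 and 2.22 CPM after saline and 4.75, 5.19, 2.59, 3.07 and 3.30 CPM after CD95-Ab. The highest value of all was that of saline replicate 2, and the log2 fold change was 0.37 (SE 0.36, edgeR FDR = 0.422). H2-DMb1 had 4.42, 5.66, 1.07, 1.77 and 2.39 CPM after saline and 5.49, 4.49, 2.79, 4.32 and 4.05 CPM after CD95-Ab, with a log2 fold change of 0.46 (SE 0.38, edgeR FDR = 0.346). Again saline replicate 2 was the highest of the 10 livers. These FDR values do not show that the levels were equal, since the log2 fold changes ranged up to 0.68 for H2-DMa and 0.79 for H2-DMb1 when a mouse was left out in turn. H2-DMa overlaps Brd2 on the opposite strand, which drew 30518 counts over the 10 livers and was higher after CD95-Ab (log2 fold change 0.57, edgeR FDR = 0.00586). H2-DMb1 has the close paralog H2-DMb2. Whether strand was used in counting is not stated, so the values of H2-DMa and of H2-DMb1 are uncertain to the extent that reads were shared out between these neighbours.

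Ciita had the lowest level per length of the 9 genes. Its counts were 69, 51, 7, 12 and 24 in the saline livers and 38, 32, 16, 53 and 100 in the CD95-Ab livers. Those are levels of 1.62, 1.51, 0.20, 0.46 and 0.44 CPM, and of 1.22, 1.02, 0.64, 2.14 and 2.21 CPM. Saline replicates 1 and 2 exceeded CD95-Ab replicates 1, 2 and 3. The mean was 0.848 ± 0.667 CPM after saline and 1.45 ± 0.700 CPM after CD95-Ab, and the gene was not called (log2 fold change 0.77, SE 0.54, edgeR FDR = 0.26). Ciita overlaps Dexi on the opposite strand, which was lower after CD95-Ab (log2 fold change -0.70, edgeR FDR = 0.00706). Dexi and Brd2 were named for this overlap.

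Cd86 separated the groups without overlap. It measured 3.25, 4.36, 1.63, 2.31 and 2.10 CPM in the saline livers and 23.2, 26.2, 22.7, 20.1 and 23.1 CPM in the CD95-Ab livers. The 5 CD95-Ab livers lay close to each other, with a coefficient of variation of 9.52%, the lowest in either group for any of the 9 genes. The mean rose from 2.73 ± 1.08 to 23.1 ± 2.20 CPM, 8.45-fold (log2 fold change 3.08, SE 0.24, edgeR FDR = 2.11e-06).

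Itgax had the largest change of the 9 genes. It measured 1.34, 1.16, 0.25, 0.46 and 0.59 CPM after saline and 12.2, 8.50, 7.68, 12.7 and 9.57 CPM after CD95-Ab. The lowest CD95-Ab liver was thus several times above the highest saline liver. The mean rose from 0.761 ± 0.466 to 10.1 ± 2.22 CPM, 13.1-fold (log2 fold change 3.71, SE 0.37, edgeR FDR = 1.25e-05). Cd86 and Itgax were also the 2 of the 9 genes whose log2 fold change reached 2, as it did with an FDR of 0.05 or less in 6.59% of all tested genes.

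Levels of different genes were compared per length, in the FPKM values deposited by the authors. In the saline livers the median was 30.2 FPKM for Cd74, 14.7 for H2-Aa, 10.4 for H2-Ab1 and 8.87 for H2-Eb1, then 1.55 for H2-DMb1, 1.45 for H2-DMa, 0.93 for Cd86, 0.13 for Itgax and 0.09 for Ciita. The ranges over mice were apart for 2 neighbours in this order, between H2-Eb1 and H2-DMb1 and between Cd86 and Itgax. The other neighbours overlapped.

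After CD95-Ab the order was Cd74 (median 73.1 FPKM), H2-Aa (33.8), H2-Eb1 (22.7), H2-Ab1 (22.2), Cd86 (9.52), H2-DMb1 (3.05), H2-DMa (2.87), Itgax (2.41) and Ciita (0.27). Cd86 had moved above both DM genes, with ranges of 6.95 to 10.8 FPKM for Cd86 and 1.90 to 4.65 FPKM for H2-DMb1 that did not overlap. Itgax had reached the range of H2-DMa, 1.72 to 3.47 FPKM against 1.70 to 3.59 FPKM. In the same liver, the FPKM of H2-Ab1 was 5.93 to 13.3 times that of Cd86 after saline and 1.63 to 3.69 times after CD95-Ab. The ratio of Cd74 to H2-Aa had a median of 1.91 after saline and 2.14 after CD95-Ab.

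**Figure D2:**
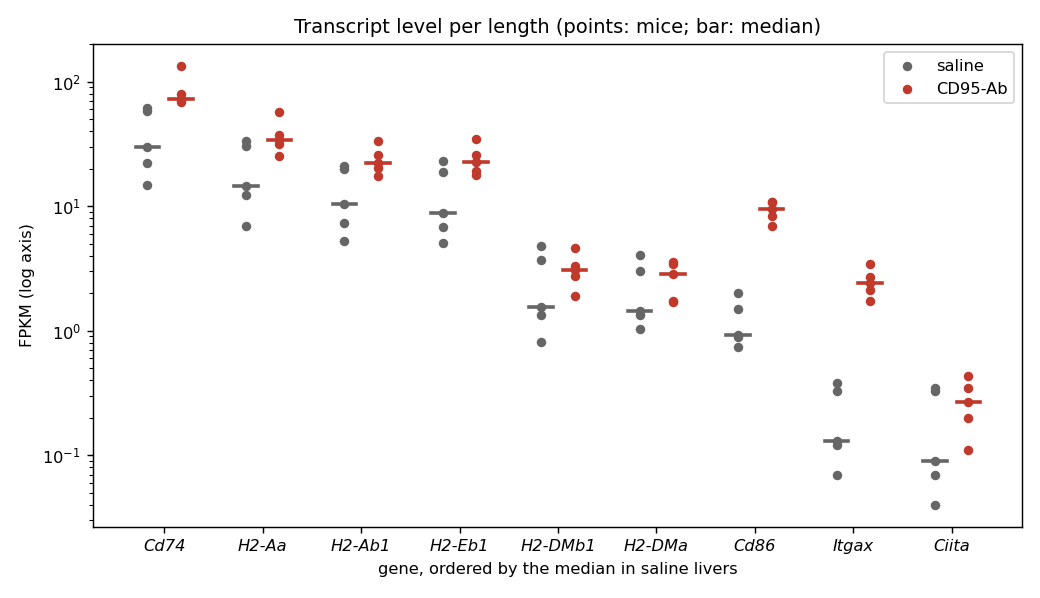
FPKM (log axis) of the 9 genes in each saline liver (grey) and CD95-Ab liver (red), with the median as a bar and genes ordered by the saline median. Cd86 moves from 0.93 to 9.52 FPKM, above H2-DMb1 and H2-DMa, and Ciita stays the lowest in both groups.

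Ratios between genes of the same liver, as log2 of CPM + 0.1, were compared with a two-sided exact permutation test over mice, whose smallest possible p for 5 against 5 is 0.00794. 12 ratios were planned and their p-values were adjusted over these 12. No difference was detected in the proportions of the chain genes. The log2 ratio of H2-Aa to H2-Ab1 differed by 0.05 between the groups (exact permutation p = 0.563) and that of H2-Eb1 to H2-Ab1 by 0.08 (exact permutation p = 0.349). The ratio of H2-DMa to H2-DMb1 differed by -0.16 (exact permutation p = 0.294) and that of Ciita to H2-Ab1 by -0.24 (exact permutation p = 0.54).

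Cd74 rose more than H2-Ab1. The log2 ratio of Cd74 to H2-Ab1 was 1.67, 1.52, 1.54, 1.61 and 1.66 in the saline livers and 2.06, 2.12, 1.77, 1.70 and 1.81 in the CD95-Ab livers, a difference of 0.29 or 1.22-fold without overlap (exact permutation p = 0.00794, adjusted 0.0191). The ratio of H2-DMa to H2-Aa differed by -0.70 and the groups overlapped (exact permutation p = 0.0714, adjusted 0.107). The ratio of Cd86 to Itgax differed by -0.62 (exact permutation p = 0.0476), which did not pass after adjustment (0.0816). With a pseudocount of 1 the direction of the Cd86 to Itgax ratio turned, at 0.055 (exact permutation p = 0.754), and in FPKM the difference was -0.26 (exact permutation p = 0.27).

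Cd86 and Itgax moved apart from the class II chains. A pair of ratios added after the data were seen gave a 3.92-fold higher Cd86 to H2-Ab1 (log2 difference 1.97) and a 6.02-fold higher Itgax to H2-Ab1 (log2 difference 2.59) after CD95-Ab. Both had an exact permutation p of 0.00794, and neither overlapped between groups. The size depended on the pseudocount. With a pseudocount of 1 the log2 differences were 1.66 for Cd86 to H2-Ab1 and 1.60 for Itgax to H2-Ab1. In FPKM they were 1.85 and 2.11 (exact permutation p = 0.00794 each). The log2 ratio of Itgax to H2-Ab1 ran from -4.41 to -3.81 after saline and from -1.87 to -1.23 after CD95-Ab.

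Ptprc, which encodes the leukocyte antigen CD45, rose 5.17-fold (log2 fold change 2.37, edgeR FDR = 0.000118). Relative to Ptprc in the same liver, H2-Ab1 was 2.53-fold lower after CD95-Ab, Cd74 2.07-fold lower and Ciita 2.99-fold lower (each exact permutation p = 0.00794, adjusted 0.0191). Itgax was 2.38-fold higher (exact permutation p = 0.00794, adjusted 0.0191) and Cd86 1.55-fold higher relative to Ptprc (exact permutation p = 0.0238, adjusted 0.0476). With a pseudocount of 1 in place of 0.1 the log2 difference of Itgax to Ptprc was 0.34 in place of 1.25 (exact permutation p = 0.23) and that of Cd86 to Ptprc was 0.40 in place of 0.63 (exact permutation p = 0.0794). The ratios also depended on the gene used as denominator. Relative to Coro1a, Cd53 and Cd52, H2-Ab1, Cd74 and Ciita were again lower (exact permutation p = 0.00794 each, here and below not adjusted). Relative to Lcp1 the log2 differences were -0.03 for H2-Ab1, 0.27 for Cd74 and -0.27 for Ciita (exact permutation p of 0.96, 0.516 and 0.619). Relative to Laptm5 they were -0.57, -0.28 and -0.81 (exact permutation p of 0.0873, 0.373 and 0.103). Relative to Csf1r, the receptor carried by macrophages and monocytes, the direction turned, with 0.48, 0.77 and 0.23 (exact permutation p of 0.167, 0.0317 and 0.524). Itgax was higher relative to all 6 of these genes. Cd86 was higher relative to 5 of them, and by 0.18 on the log2 scale relative to Coro1a (exact permutation p = 0.365). The denominators other than Ptprc were added after the data were seen.

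**Figure D3:**
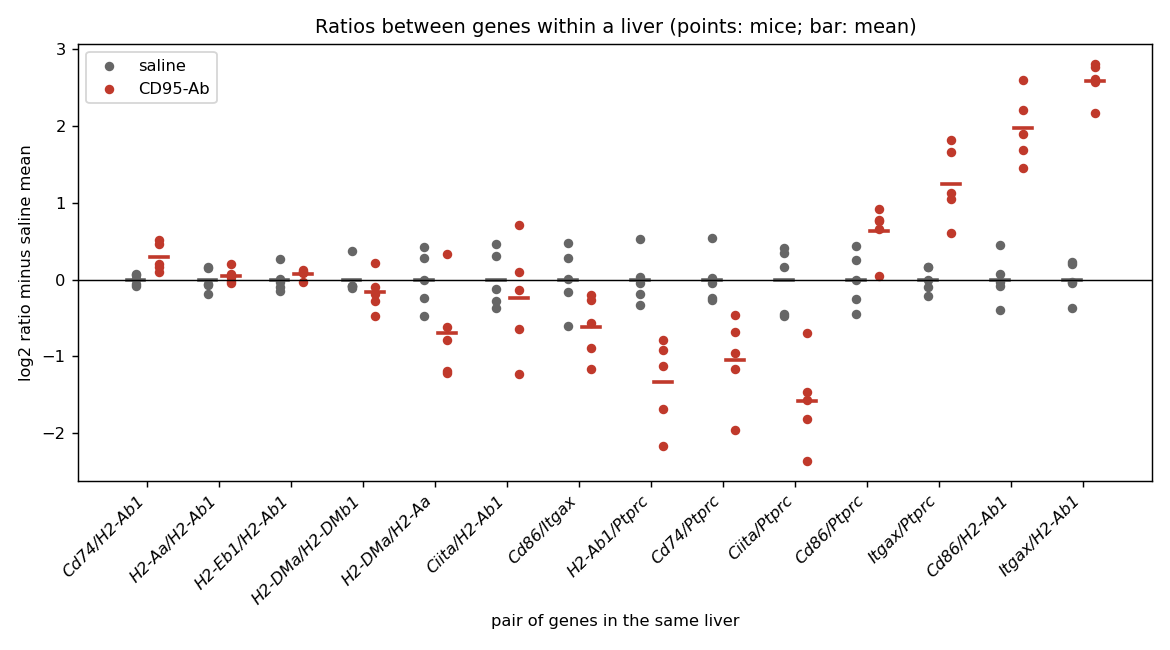
Difference of each log2 ratio (CPM + 0.1) from its saline mean for 14 pairs of genes, with a point for each saline liver (grey) or CD95-Ab liver (red) and a bar at the mean. Ratios among the chains stay near 0, ratios of H2-Ab1, Cd74 and Ciita to Ptprc lie below the saline livers, and ratios of Itgax to Ptprc and of Cd86 and Itgax to H2-Ab1 lie above them.

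The saline livers differed from each other in the whole set together. Saline replicate 3 was the lowest saline liver for 9 of the 9 genes, and the highest was saline replicate 1 for 5 genes and saline replicate 2 for 4. The CD95-Ab livers had no such shared order. CD95-Ab replicate 3 was the lowest for 4 genes and CD95-Ab replicate 2 for 3, while CD95-Ab replicate 2 was also the highest for 2. The summed level of the 9 genes was 154.8, 147.4, 40.3, 80.4 and 71.9 CPM in the saline livers and 310.8, 200.1, 230.4, 269.3 and 201.9 CPM in the CD95-Ab livers. The coefficient of variation was 39.7% to 78.6% after saline and 9.52% to 48.4% after CD95-Ab.

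With the group means of log2 CPM removed, the 3 chains and Cd74 followed each other over the 10 mice with a Pearson r of 0.97 to 0.985, and H2-DMa followed H2-DMb1 with r of 0.945. The lowest r of any pair of the 9 genes was 0.681, between H2-Ab1 and H2-DMa. Itgax had an r of 0.921 to 0.937 with the chains, and Cd86 of 0.741 to 0.775. The Spearman rank correlations were lower, at 0.794 to 0.806 for Itgax and 0.576 to 0.624 for Cd86. These values are descriptions over 10 livers that share their libraries and scaling factors. They pool both groups, and each of the 9 genes varied more among the saline livers. How the genes follow each other after CD95-Ab alone is therefore not shown by them. CD95-Ab replicate 2 had the highest Cd86 and H2-DMa of its group (26.2 and 5.19 CPM) and the lowest H2-Aa (27.2 CPM).

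By the same measure, the genes most like the mean of H2-Aa, H2-Ab1, H2-Eb1 and Cd74 among 12120 genes with a mean of at least 1 CPM were Il21r, the receptor of interleukin-21 (r of 0.936), Ccl5, a chemokine for T cells (0.891), Ubd, an interferon-induced ubiquitin-like protein (0.865), and Prdm1, the transcriptional repressor BLIMP-1 (0.862). Prss8 (0.86), Adamts7 (0.858), the receptor gene Tlr2 (0.857), Fpr2 (0.854), Egr2 (0.853) and Lst1 (0.853) followed. Spearman rank correlations ranged from 0.552 for Fpr2 to 0.915 for Il21r. These genes were picked from 12120 for a high r over 10 livers, so a high r was set by the selection. Their own changes were unlike each other, since Tlr2 rose from 2.02 to 108.0 CPM (log2 fold change 5.74, edgeR FDR = 1.35e-06) while Prss8 fell from 5.76 to 1.82 CPM (log2 fold change -1.66, edgeR FDR = 0.000552).

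Other genes of the class II pathway were also mostly higher, where 25.4% of all tested genes were higher and 22.0% were lower. Of 11, 9 were tested, 7 were higher and none was lower, with a median log2 fold change of 1.21. They were H2-DMb2, with 0.508 ± 0.207 CPM after saline and 1.18 ± 0.383 after CD95-Ab, and H2-Ob, a chain of the DM-inhibiting DO molecule, with 0.608 ± 0.242 and 1.99 ± 1.01 CPM. Ctss, the protease that trims the invariant chain, rose from 30.7 ± 16.9 to 76.0 ± 20.1 CPM (log2 fold change 1.31, SE 0.35, edgeR FDR = 0.00851). The endosomal reductase Ifi30 (log2 fold change 1.25), the protease Lgmn (1.11) and Sppl2a, which cleaves the last membrane stub of the invariant chain (0.61), were higher as well. So was March1, the ubiquitin ligase that sends class II molecules and CD86 to degradation (log2 fold change 1.52, SE 0.28, edgeR FDR = 0.000847). The cathepsins Ctsl and Ctsb, at 488.6 and 559.1 CPM after saline, had log2 fold changes of 0.14 and 0.19 and were not called. H2-Oa and H2-Eb2 had too few counts to be tested.

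Among 14 regulators of class II genes, 13 were tested, 10 were higher and 2 were lower, with a median log2 fold change of 0.82. Over all tested genes 25.4% were higher and 22.0% were lower, so the 2 lower regulators of 13 lay below that share. Of the RFX complex, Rfx5 (log2 fold change 0.56) and Rfxank (1.11) rose, while Rfxap fell from 5.99 ± 0.681 to 3.98 ± 0.312 CPM (log2 fold change -0.59, SE 0.13, edgeR FDR = 0.00332). Of the NF-Y complex, Nfya (0.72) and Nfyb (0.73) rose and Nfyc fell by 0.28 on the log2 scale (edgeR FDR = 0.0455), a call that was lost in 11 of 21 alternatives, while Rfxap kept its call in all 21. Of the interferon gamma axis, the receptor genes Ifngr1 (1.13) and Ifngr2 (0.82) and the factor Irf1 (1.46) rose. Ifng itself had 0 to 8 counts per liver and was not tested. Factors of myeloid cells rose more, with log2 fold changes of 2.58 for Irf8 and 2.48 for Spi1 (PU.1). Prdm1, which is known to repress Ciita, rose from 0.312 ± 0.237 to 2.93 ± 0.433 CPM (log2 fold change 3.23, SE 0.47, edgeR FDR = 0.000174). It had 1 to 21 counts in the saline livers and passed the filter through the CD95-Ab livers, so the filter favoured a rise. Creb1 was not called.

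In a list of other costimulatory and coinhibitory genes, those tested were higher, as Cd86 was. Of 8 genes, 5 were tested and all 5 were higher, with a median log2 fold change of 3.07, where 25.4% of all tested genes were higher. Cd80 and Tnfsf9 had 4 to 9 and 0 to 7 counts in the saline livers. They passed the filter only through the CD95-Ab livers, so the filter itself favoured genes higher after CD95-Ab. With at least 10 counts in every mouse, 3 genes of this list were higher. Cd80, the second ligand of CD28, rose from 0.153 ± 0.0632 to 1.59 ± 0.369 CPM (log2 fold change 3.38), Cd40 from 0.955 ± 0.319 to 5.10 ± 0.812 CPM (2.41), and Cd274, which encodes PD-L1, from 2.35 ± 1.54 to 21.4 ± 4.55 CPM (3.19). Icosl (2.13) and Tnfsf9 (3.07) were higher too. Tnfsf4 and Cd70 had no count in any liver, and Pdcd1lg2 was not tested.

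The class I pathway, which loads peptides in all nucleated cells, had 3 of 9 genes higher and none lower, with a median log2 fold change of 0.75. Of all tested genes, 25.4% were higher and 22.0% were lower, so the count of higher class I genes was near that share. H2-D1 rose from 472.2 ± 108.9 to 812.5 ± 179.8 CPM, and the peptide transporter gene Tap2 (0.98) and Nlrc5, the class I relative of Ciita (0.85), were higher. B2m (0.11) and H2-K1 (0.40) were not called. This count moved from 2 to 8 when single mice were left out, with 7 without saline replicate 2 and 8 without CD95-Ab replicate 5.

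**Figure D4:**
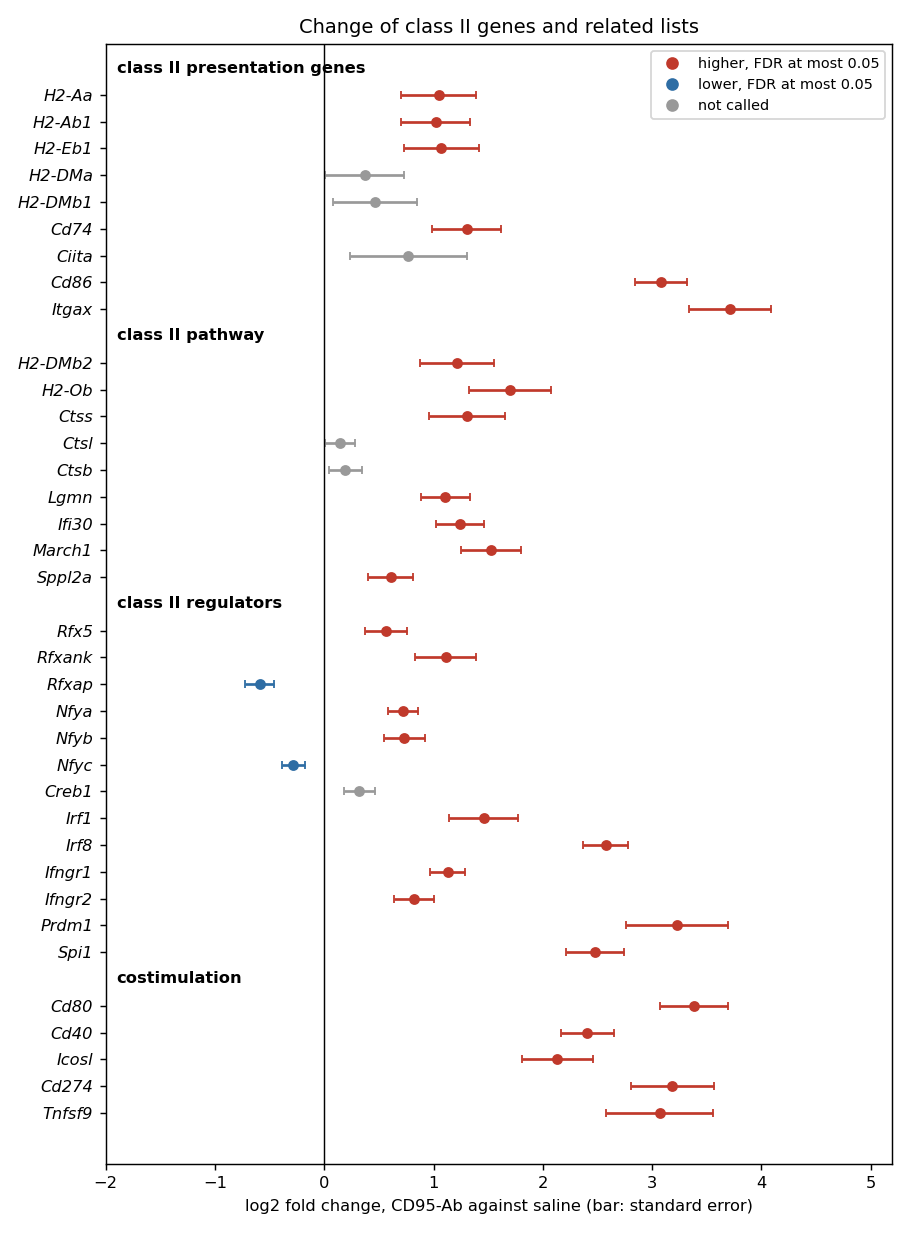
Log2 fold change of CD95-Ab against saline with its standard error for the 9 genes and for the tested genes of the class II pathway, class II regulator and costimulation lists, coloured by the call at an FDR of 0.05 or less. Every tested costimulation gene lies above 2 together with Cd86 and Itgax, and Rfxap and Nfyc are the lower genes.

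Markers of cells that could hold class II RNA were examined in the same livers, against the 25.4% of all tested genes that were higher. Of 14 dendritic cell markers, 11 were tested, 6 were higher and none was lower, and their summed level was 12.1 to 17.0 CPM after saline and 27.4 to 37.1 CPM after CD95-Ab. Wdfy4 (log2 fold change 1.42) and Fscn1 (2.15) rose, as did Flt3 (1.08), Siglech (1.53), Ccr7 (2.56) and Ccl22 (5.94). Ccl22 had 0 to 3 counts in the saline livers. Zbtb46 (0.38), Batf3 (0.82) and Clec10a (0.71) were not called. Clec9a and Xcr1, markers of the cross-presenting type 1 dendritic cell, stood at 2.84 ± 0.912 and 0.522 ± 0.307 CPM after saline and at 2.48 ± 0.721 and 0.611 ± 0.128 CPM after CD95-Ab and were not called. Clec9a, Xcr1, Flt3, Siglech, Ccr7, Ccl22, Batf3, Clec10a and Cd163 were named after their values were seen. Of 10 B cell markers, 7 were tested and 6 were higher. Their sum was 1.47 to 6.82 CPM after saline and 6.51 to 23.8 CPM after CD95-Ab, the highest being CD95-Ab replicate 4, and Cd22 and Cd79a reached 3.18 ± 0.916 and 2.26 ± 1.66 CPM after CD95-Ab. With at least 10 counts in every mouse, fewer genes were tested, and 2 dendritic cell markers and 1 B cell marker were higher. Of 12 Kupffer cell and macrophage markers, all tested, 3 were higher and 1 was lower. Their sum of 198.3 to 645.3 CPM after saline overlapped that of 385.0 to 817.7 CPM after CD95-Ab. The lower gene, Cd163, was not called without saline replicate 2, 3, 4 or 5 or without CD95-Ab replicate 1, 2 or 4, and 6 genes were higher without saline replicate 2. Cd5l rose (log2 fold change 1.01), while Clec4f (0.10) and C1qb (0.73) were not called.

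Markers of blood leukocytes were higher too, those of monocytes and neutrophils by more than the class II chains. Of 6 monocyte markers, 5 were tested and 5 were higher, with a sum of 5.61 to 15.7 CPM after saline and 67.3 to 135.9 CPM after CD95-Ab. Plac8 (log2 fold change 2.42), F13a1 (6.87) and Chil3 (6.32) were among them. F13a1 and Chil3 had 3 to 8 and 3 to 15 counts in the saline livers and passed the filter through the CD95-Ab livers. All 7 tested of 9 neutrophil markers were higher, S100a8, S100a9 and Csf3r among them, with sums of 4.12 to 10.7 and 109.9 to 464.0 CPM. Of 9 T and NK cell markers 7 were higher, with sums of 2.00 to 7.01 and 9.89 to 12.5 CPM, and the log2 fold change of the granzyme gene Gzmb was 1.79. This count was 3 without saline replicate 5 and 4 without saline replicate 3, saline replicate 4, CD95-Ab replicate 1 or CD95-Ab replicate 4. With at least 10 counts in every mouse, fewer genes were tested. Then 2 monocyte, 4 neutrophil and 2 T and NK cell markers were higher. All 7 markers of sinusoidal endothelial cells were tested and 6 were higher, with sums of 59.4 to 139.6 and 191.4 to 345.4 CPM. The 6 markers of all leukocytes were higher, with sums of 102.1 to 152.3 and 310.6 to 443.3 CPM. Every marker of these lists had counts in at least 1 liver, and Fcnb of the monocyte list had none after saline.

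Hepatocyte markers went the other way, with 4 of 8 lower, none higher and 4 not called, where 22.0% of all tested genes were lower and 25.4% were higher. Their sums were 112900 to 137700 CPM after saline and 52780 to 91910 CPM after CD95-Ab. All 6 erythrocyte markers were higher, from sums of 135.0 to 324.6 CPM to 1064 to 34010 CPM. The small nuclear RNA Rn7sk, chosen after its values were seen, had 0.204 to 0.808 CPM after saline and 354.8 to 1301 CPM after CD95-Ab. The part of these cell types, of blood and of the RNA classes recovered in the levels of the 9 genes was not tested.

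**Figure D5:**
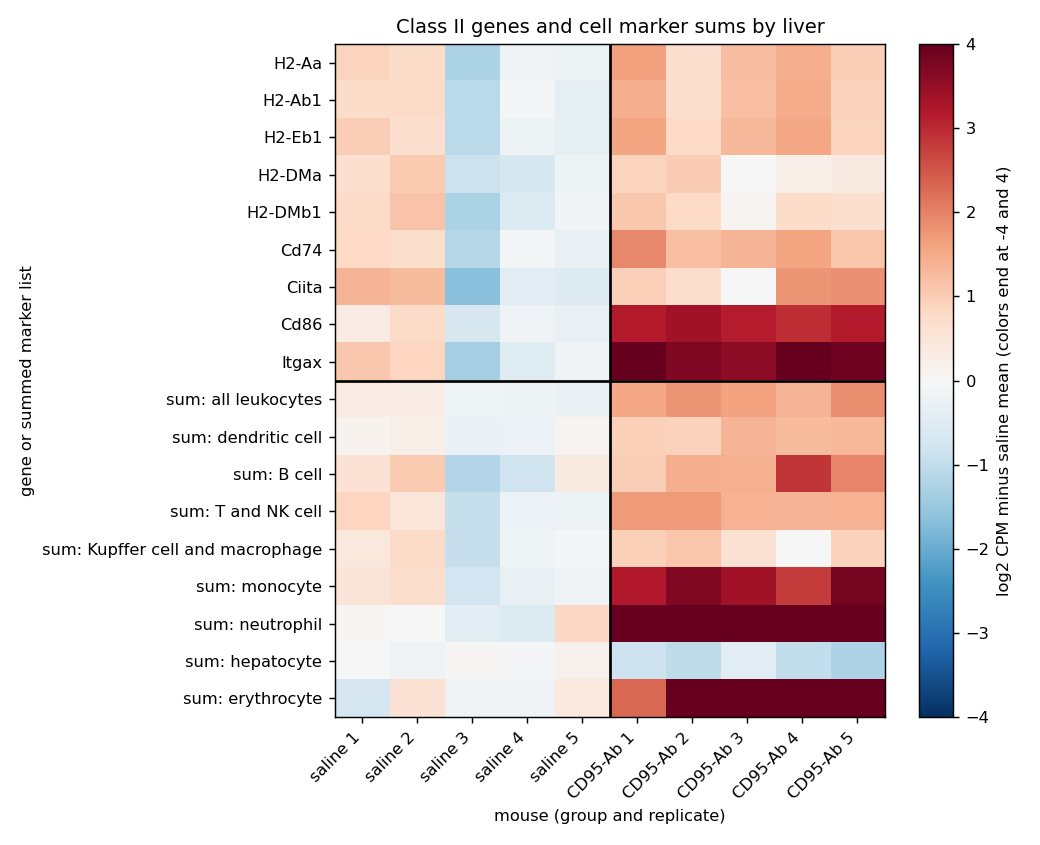
Log2 CPM minus the saline mean in each liver for the 9 genes (above the line) and for the summed CPM of 9 marker lists (below it), with colours ending at -4 and 4. Saline replicates 1 and 2 are above and saline replicate 3 is below the other controls for the chains, Cd74, the Kupffer cell and the T and NK cell sums alike, and the B cell sum is highest in CD95-Ab replicate 4.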

How the data were processed

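Liver RNA of 5 saline and 5 CD95-Ab mice was analysed, grouped by the sample titles. The authors aligned paired-end TruSeq reads and estimated gene levels with RSEM 1.2.19, and deposited expected counts per gene, which are whole numbers here and are not normalized. They also deposited FPKM, scaled for length and library total. The methods name a human Gencode release for this step, although the deposited identifiers are mouse Ensembl genes. The mouse build and annotation, and whether strand was used in counting, are not given in the sources used here. RSEM shares reads between genes they fit, so overlapping genes and paralogs are less certain. Symbols and positions came from GENCODE mouse release 21 (GRCm38), promoter windows from RefSeq (GRCm38.p6).

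Genes were kept by filterByExpr (minimum count 10), scaled with TMM factors and compared by edgeR 4.0.16 (quasi-likelihood test, R 4.3.3) between the groups with no other term, FDR by Benjamini-Hochberg. Standard errors were derived from the F statistic. Alternatives used other scaling factors, DESeq2 1.42.0, limma 3.58.1, the likelihood ratio test, other filters, a replicate block and each mouse left out. Ratios used log2 of CPM + 0.1 and exact permutation tests in Python 3.11.15. The code was tested on simulated counts. There 59.6% of genes set to a log2 fold change of 1 in size were called, and 96.9% of those set to 2. Of the calls, 3.8% were false. Far fewer genes were changed in that simulation than were called here, so its shares may not carry over to these livers. Depth was 25965699 to 62097636 counts, at which 3 counts are 0.116 to 0.0483 CPM.

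The 9 genes and the 14 gene lists were chosen with earlier results of these data known. All members of the class II, regulator, costimulation and class I lists could be named, of each marker list the 3 genes with the highest mean level and any at 0, and the 10 genes most like the chains and Cd74. The mice are separate animals per the labels. 1 gene of the regulator list is not reported here and was left out of that list's counts and median.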

Additional observations from a re-analysis of the deposited data

Results flagged for a closer look

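Of 46 groups of 5 livers examined for a liver far from the others, 2 held one, where chance gives about 1 in 20. The log2 ratio of H2-Eb1 to H2-Ab1 was -0.117 in CD95-Ab replicate 5 and between -0.005 and 0.035 in the other CD95-Ab livers. The log2 ratio of H2-DMa to H2-DMb1 was 0.366 in saline replicate 3 and between -0.125 and -0.092 in the other saline livers. Saline replicate 3 was also the liver with the lowest levels of both DM genes, 1.41 and 1.07 CPM.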

How the results depend on the processing

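Cd74, Cd86 and Itgax were called in every alternative that tested them, and H2-DMa, H2-DMb1 and Ciita in none. Of the 9 genes, 3 were higher with library totals, 3 without saline replicate 5 and CD95-Ab replicate 4 together (added after the data were seen), and 4 to 6 with single mice left out. With at least 10 counts in every mouse, Ciita and Itgax were not tested, 1 of the 9 genes passed the fold threshold and 3 costimulation genes were higher, since fewer genes were tested. The regulators held 1 lower gene under the likelihood ratio test, no filter, the count minimum and the replicate block, and 1 to 2 with mice left out. Class I genes higher numbered 5 with DESeq2, 5 with the likelihood ratio test, 7 with the replicate block and 2 to 8 with mice left out. Where no value is given for a cause, the cause was not tested.

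No pairing of the mice by replicate number was detected, though 5 numbers are too few to exclude a pairing. The mean correlation of deviations was 0.037 for the same number and -0.006 for other numbers, and 2 of 5 numbers correlated best with themselves. For the same number it ran from -0.274 for replicate 5 to 0.257 for replicate 1. With the replicate block the same count of 6 of the 9 genes was higher. For ratios the smallest p of 5 pairs is 0.0625, so no ratio could pass, at the same log2 differences (Cd74/H2-Ab1 0.29, Cd86/Itgax -0.62, H2-Ab1/Ptprc -1.34, Cd74/Ptprc -1.05, Ciita/Ptprc -1.58, Cd86/Ptprc 0.63, Itgax/Ptprc 1.25, Cd86/H2-Ab1 1.97, Itgax/H2-Ab1 2.59).

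With a pseudocount of 1 the log2 differences were -0.78 for H2-DMa/H2-Aa and -0.64 for Ciita/H2-Ab1, both then at p under 0.05 before adjustment, 0.055 for Cd86/Itgax, which turned its direction, 0.40 for Cd86/Ptprc and 0.34 for Itgax/Ptprc. With FPKM they were -0.26 for Cd86/Itgax and 0.60 for Cd86/Ptprc. For Cd86/H2-Ab1 and Itgax/H2-Ab1 they were 1.66 and 1.60 with a pseudocount of 1, and 1.85 and 2.11 with FPKM. Leaving out single mice gave -0.001 to 0.087 for H2-Aa/H2-Ab1, turning without saline replicate 3, and -0.48 to 0.005 for Ciita/H2-Ab1, turning without CD95-Ab replicate 3. It gave 0.038 to 0.142 for H2-Eb1/H2-Ab1, -0.26 to -0.07 for H2-DMa/H2-DMb1, -0.96 to -0.57 for H2-DMa/H2-Aa, -0.77 to -0.48 for Cd86/Itgax and 0.52 to 0.78 for Cd86/Ptprc. In place of Ptprc, Lcp1 gave -0.025 (H2-Ab1), 0.27 (Cd74) and -0.27 (Ciita), Laptm5 -0.57, -0.28 and -0.81, Csf1r 0.48, 0.77 and 0.23, and Coro1a 0.18 (Cd86). Depth limits Ciita most, at 7 to 100 counts per liver.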
